A study of Rattus norvegicus with 15 samples.

Results

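The 4 genes described here encode the core of the NLRP3 inflammasome pathway of interleukin-1 release: Nlrp3 (ENSRNOG00000003170), Casp1 (ENSRNOG00000007372), Il1b (ENSRNOG00000004649) and Il18 (ENSRNOG00000009848). They were named by identifier, with earlier results of these data known, and all 4 were present among the 17599 features of the table. The symbols came with the choice of the 4 identifiers, since the files give identifiers alone. The RNA came from whole blood in a rat model of deep venous thrombosis, the formation of a clot in a deep vein. The animals were male Sprague-Dawley, an outbred laboratory stock, at 6 to 8 weeks of age and 250 to 300 g. The 15 libraries form 5 groups of 3, namely sham, placed by the labels at 0 h, and 4 times after modelling, which are 1 h, 6 h, 12 h and 72 h. How the thrombosis was induced is not given in the labels. No allele, drug or further agent is named in the labels for any group, and sham was sampled at a single time, so that no time after modelling has a sham group of its own. The sample titles carry the letters A&B for the 9 libraries of sham, 1 h and 72 h and the letter C for the 6 libraries of 6 h and 12 h, here called title labels, and do not say what the letters stand for. Where 6 h or 12 h is set against sham, 1 h or 72 h, time and title label cannot be told apart. Replicates are numbered with no animal named, so the spread behind each p-value is that among these libraries and may be technical.

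The inflammasome is a cytosolic protein platform found mainly in monocytes, macrophages and neutrophils. A priming signal, often through Toll-like receptors and NF-kB, raises transcription of Nlrp3, the sensor, and of Il1b, the precursor of the fever-inducing cytokine interleukin-1 beta, and a later signal such as potassium efflux assembles the sensor with caspase-1, the product of Casp1. Caspase-1 then cuts the precursors of interleukin-1 beta and interleukin-18 into their active forms, so that transcript levels record the supply of components and not the cleavage itself. The Il18 precursor is made constitutively in many cell types.

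The libraries held 29.2 to 43.3 M reads (mega-reads), of which 5 assembled features took 79.3 to 85.1% and all other features 4.67 to 7.65 M. The values are normalised read counts, that is, reads divided by a factor for each library, which was lowest for 12 h replicate 2 (0.584) and highest for 12 h replicate 3 (2.67), the next highest being 1.57. Replicate 3 at 12 h also had reads in the most features, 14524 against 11709 to 13709 elsewhere. It stands apart from its group for several of the genes, and results that rest on it are given with and without it. Cell type markers could not be checked against the label of whole blood, because the identifiers of other features are not paired with names in the sources used here.

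Nlrp3 had normalised read counts of 171, 206 and 123 in sham, 21.2, 68.9 and 48.8 at 1 h, 128, 100.5 and 135 at 6 h, 57.6, 60.0 and 436 at 12 h and 134, 157 and 158 at 72 h (replicates 1 to 3). Every library at 1 h lay below every sham, 6 h and 72 h library, while 12 h held 2 low libraries and the highest of all 15. The lowest value, in 1 h replicate 1, rested on 16 reads (95% exact Poisson interval 9.15 to 26.0 reads, counting error alone), and the highest on 1167 reads.

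The mean of Nlrp3 was 46.3 ± 23.9 at 1 h and 167 ± 41.9 in sham (SD, n = 3 each), 3.60-fold lower at 1 h. On the log2(value + 1) scale, which understates changes of low features, the difference was -1.95 (SE 0.59, 95% interval -3.19 to -0.70), and it did not pass Benjamini-Hochberg adjustment over all 11117 features tested with limma (adjusted p = 0.338, unadjusted p = 0.00430). In a fit to the 9 libraries of title label A&B alone, chosen after the data were examined, the difference was the same with a smaller SE of 0.37 and passed (limma adjusted p = 0.0271), in a comparison in which 0.953% of features were called. Without 12 h replicate 3, which is in neither group compared but enters the shared estimate of the spread, the SE was 0.35 and the limma adjusted p 0.00880 (0.909% of features called). The adjusted p of this difference ran from 0.00650 to 0.949 over all settings tried, while the log2 difference stayed between -2.38 and -1.48. In bulk blood, fewer cells that carry a transcript and less of it per cell cannot be told apart.

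At 72 h Nlrp3 stood at 150.0 ± 13.6 (SD, n = 3), 3.24-fold above 1 h and beside 167 in sham. The log2 difference from 1 h was 1.82 (SE 0.59, 95% interval 0.58 to 3.07, limma adjusted p = 0.320), between groups of the same title label. Within title label A&B the limma adjusted p was 0.0562 (0.351% of features called), and without 12 h replicate 3 it was 0.0400 (0.234% called). Against sham, 72 h differed by -0.13 with a 95% interval of -1.37 to 1.12, which is too wide to show that the level had returned. The 6 h libraries were compact, at 121 ± 18.2 (SD, n = 3), with a log2 difference from sham of -0.44 (95% interval -1.68 to 0.81, limma adjusted p = 0.752). At 12 h the mean of 185 ± 218 (SD, n = 3) was set by replicate 3, which lay 7.43-fold above the mean of the other 2 libraries. With all 3 libraries the log2 difference of 12 h from sham was -0.50 (limma adjusted p = 0.747), and without replicate 3 it was -1.46 (limma adjusted p = 0.0221), where 13.9% of all features were called.

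**Figure D1:**
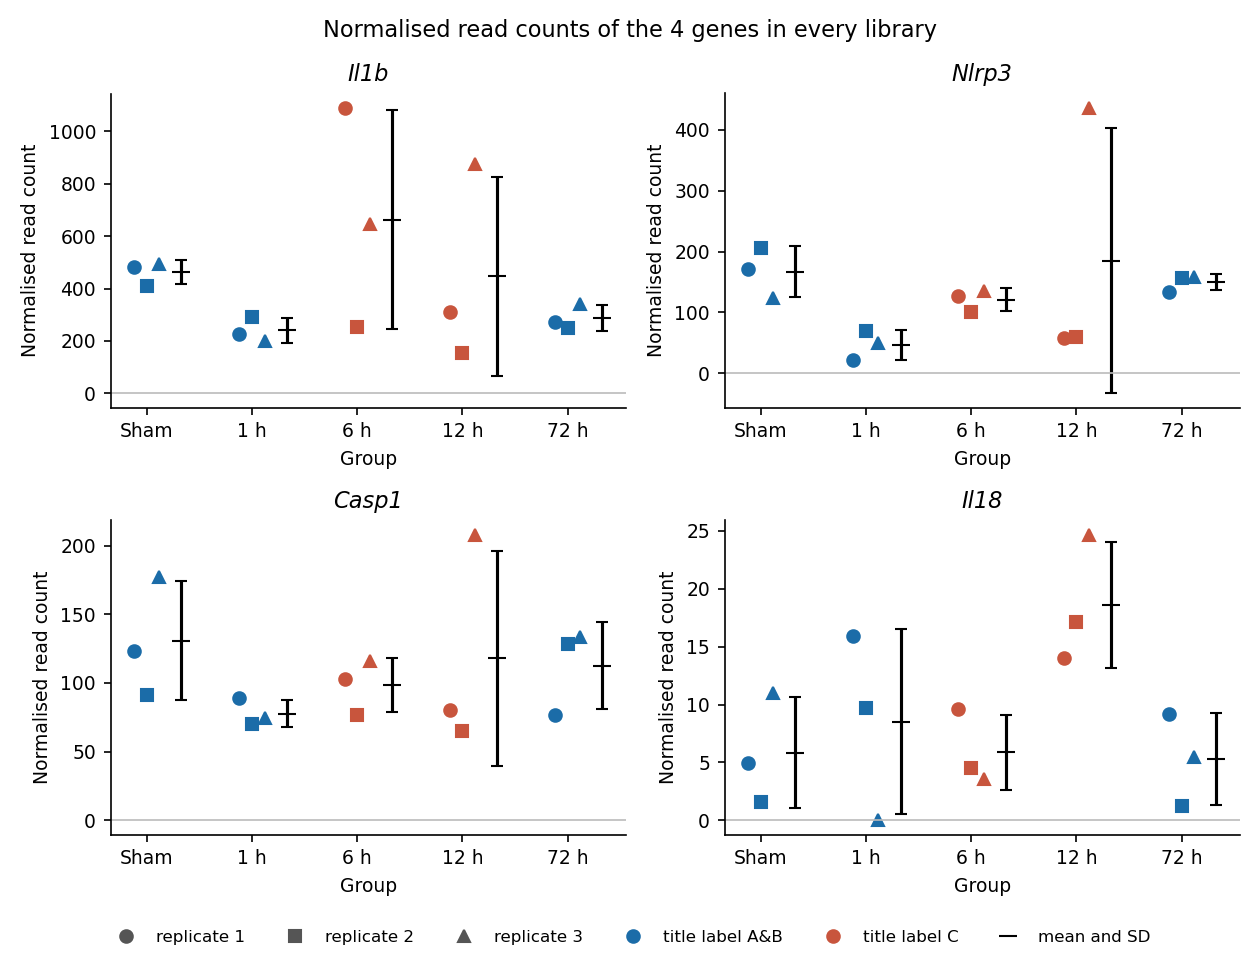
Normalised read counts (linear axes) of Il1b, Nlrp3, Casp1 and Il18 in all 15 libraries by group. Symbols mark the replicate number, colours the title label, and bars the mean and SD of 3 libraries. The 3 Nlrp3 values at 1 h lie between 21.2 and 68.9, below the sham values of 123 to 206, and 12 h replicate 3 is the highest library for Nlrp3, Casp1 and Il18.

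Il1b had normalised read counts of 483, 409 and 492 in sham, 228, 293 and 201 at 1 h, 1089, 252 and 647 at 6 h, 311, 152 and 875 at 12 h and 274, 248 and 341 at 72 h (replicates 1 to 3). The 3 sham libraries lay close together and above every library at 1 h and at 72 h, whereas the 6 h and 12 h groups each spanned the sham values. At 6 h replicate 1 was high and replicate 2 low, and at 12 h replicate 3 was high.

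The mean of Il1b was 461 ± 45.9 in sham and 241 ± 47.2 at 1 h (SD, n = 3 each), 1.92-fold lower at 1 h. The log2 difference was -0.95 (SE 0.54, 95% interval -2.09 to 0.19), with a limma adjusted p of 0.755 over all features and 0.0897 within title label A&B. At 72 h the mean was 288 ± 48.4 (SD, n = 3), a log2 difference from sham of -0.69 (95% interval -1.83 to 0.46, limma adjusted p = 0.791). From 1 h to 72 h Il1b differed by 0.26 (limma adjusted p = 0.935), against 1.82 for Nlrp3. The highest mean was that at 6 h, 663 ± 419 (SD, n = 3), but its log2 difference from sham was 0.29 (95% interval -0.85 to 1.43, limma adjusted p = 0.830) and became -0.19 without 6 h replicate 1 and -0.42 with equal totals outside the 5 dominant features. At 12 h the mean was 446 ± 380 (SD, n = 3) and the log2 difference from sham -0.41 (limma adjusted p = 0.779), or -1.07 without 12 h replicate 3 (limma adjusted p = 0.117) and 0.18 without 12 h replicate 2. Compared with 6 h directly, Il1b at 12 h differed by -0.70 (95% interval -1.84 to 0.45, limma adjusted p = 0.990).

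Casp1 had normalised read counts of 124, 91.4 and 177 in sham, 88.7, 69.8 and 74.2 at 1 h, 103, 76.8 and 116 at 6 h, 80.6, 65.1 and 208 at 12 h and 76.3, 128 and 134 at 72 h (replicates 1 to 3). It varied least of the 4 genes across the 15 libraries, with an SD of 0.50 on the log2 scale, against 0.79 for Il1b, 1.02 for Nlrp3 and 1.28 for Il18. These SDs include 12 h replicate 3 and counting error, which is largest for Il18 at 0 to 66 reads. For Casp1 the 1 h libraries lay below the sham libraries with a gap of 88.7 to 91.4, and the other times overlapped sham. The exact Poisson intervals of the libraries on either side of this gap overlapped, so it was within counting error. The mean was 77.6 ± 9.89 at 1 h and 131 ± 43.3 in sham (SD, n = 3 each), so that 1 h was 1.68-fold the lower. The log2 difference was -0.70 (SE 0.40, 95% interval -1.54 to 0.14). Its limma adjusted p was 0.752, and 0.368 within title label A&B. The 6 h mean of 98.5 ± 19.9 (SD, n = 3) lay -0.37 log2 units from sham (limma adjusted p = 0.674). The 12 h mean of 118 ± 78.4 (SD, n = 3) lay -0.29 from sham (limma adjusted p = 0.789), with replicate 3 2.85-fold above the mean of the other 2 libraries. The 72 h mean of 113 ± 31.6 (SD, n = 3) lay -0.20 from sham (limma adjusted p = 0.936).

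Il18 was near the limit of detection. It had 5, 2 and 17 reads in sham, 12, 10 and 0 at 1 h, 7, 4 and 5 at 6 h, 11, 10 and 66 at 12 h and 7, 2 and 4 at 72 h (replicates 1 to 3). The 0 reads in 1 h replicate 3 allow up to 3 reads at a one-sided 95% limit, a normalised read count of 2.82, and up to 3.69 reads by the two-sided exact Poisson interval. Intervals from such counts are wide: the 2 reads of sham replicate 2 have a two-sided 95% exact Poisson interval of 0.242 to 7.22 and the 66 of 12 h replicate 3 one of 51.0 to 84.0, for counting error alone.

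Normalised, Il18 stood at 4.98, 1.56 and 11.0 in sham, 15.9, 9.70 and 0 at 1 h, 9.60, 4.52 and 3.58 at 6 h, 14.1, 17.1 and 24.7 at 12 h and 9.21, 1.27 and 5.51 at 72 h. All 3 libraries at 12 h lay above all sham, 6 h and 72 h libraries and overlapped 1 h. The mean at 12 h was 18.6 ± 5.46 and that of sham 5.85 ± 4.77 (SD, n = 3 each). The log2 difference was 1.75 (SE 1.00, 95% interval -0.36 to 3.86, limma adjusted p = 0.465), and against 6 h, under the same title label, it was 1.57 (95% interval -0.54 to 3.68, limma adjusted p = 0.990). The difference from sham ran from 0.24 to 2.29 over the settings tried, the lower end with 12 h replicate 3 left out and the library factor in the model, and passed in none of them. Il18 had a value of at least 10, which was asked of 3 libraries for testing, in 5 of 15 libraries, of which 3 were those at 12 h, while the other 3 genes reached it in all 15. Without 12 h it would not have been tested, so its values at 12 h are a description, and its separation there is not read against that of other features.

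**Figure D2:**
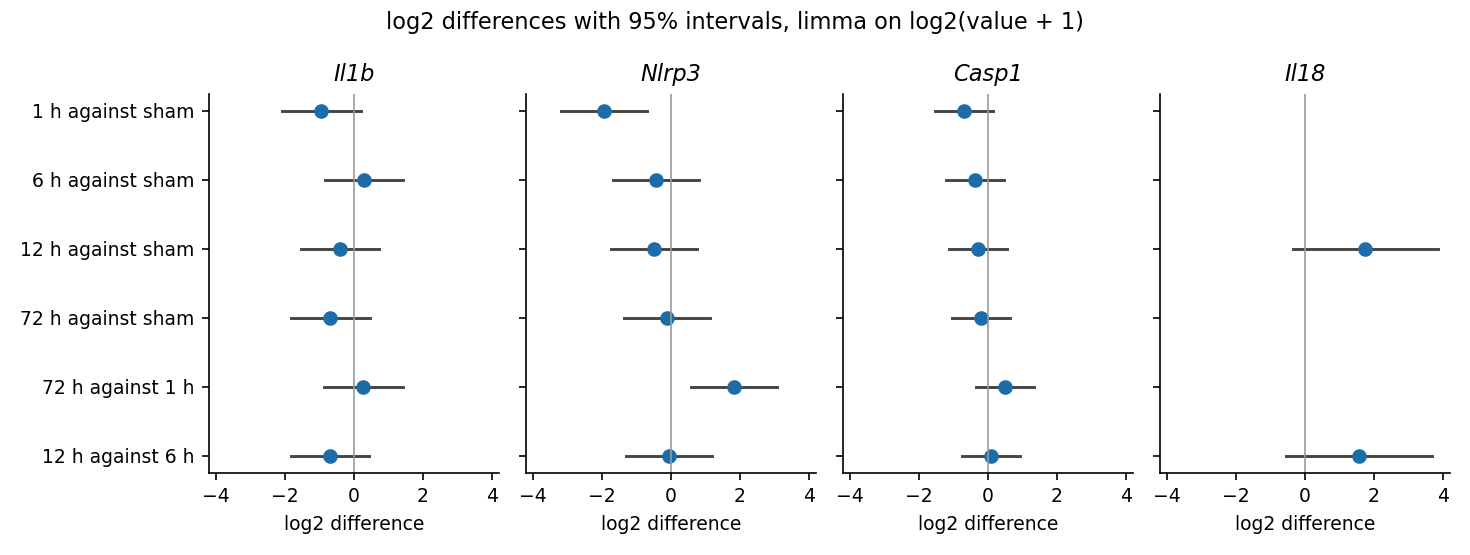
log2 differences (points) with 95% intervals (lines) from the limma fit on log2(value + 1), for Il1b, Nlrp3 and Casp1 in 6 comparisons and for Il18 in the 2 comparisons with 12 h. The interval lies wholly on 1 side of 0 for Nlrp3 at 1 h against sham (-3.19 to -0.70) and at 72 h against 1 h (0.58 to 3.07), and spans 0 for all others shown.

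Read together, 0 of the 4 genes passed limma adjusted p 0.05 in any comparison. Of all features, the comparisons with sham called 0.135% at 1 h, 0.486% at 6 h, 0.072% at 12 h, and for 72 h 0%. The shares were 0.018% at 72 h against 1 h, 0% at 12 h against 6 h and 1.11% for any difference among the 5 groups. The mean of 6 h and 12 h against that of 1 h and 72 h, the contrast that coincides with title label, called 1.84% of features and 0 of the 4 genes, with log2 differences of 0.76 for Il1b (limma adjusted p = 0.331) and 0.57 for Nlrp3 (limma adjusted p = 0.524). At unadjusted p under 0.05, limma held 1 of the 4, Nlrp3, at 1 h against sham (7.29% of all features), at 72 h against 1 h (9.01%) and for any difference (15.2%; unadjusted p = 0.0297, adjusted 0.276). It held 0 of the 4 in the other 5 comparisons, which held 17.1% of all features for 6 h, 13.1% for 12 h and 7.25% for 72 h against sham, 3.8% at 12 h against 6 h and 16.6% for the contrast of means. edgeR and DESeq2 on the recovered reads also called 0 of the 4 in every comparison, with Nlrp3 adjusted p-values at 1 h of 0.419 and 0.202. Among all features edgeR called 0% for 1 h, 0.495% for 6 h, 0.054% for 12 h and 0% for 72 h against sham, 0% for 12 h against 6 h, 0.009% for 72 h against 1 h, 1.78% for the contrast of means and 0.792% for any difference. In the same order DESeq2 called 0.631%, 6.55%, 3.46%, 0.288%, 0.0915%, 0.706%, 5.28% and 6.45% of the features to which it gave an adjusted p, which for Il18 it did not in 4 of the comparisons.

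Nlrp3 alone passed under some other settings of limma, each of which also called a larger share of all features in the comparisons given here. With array weights, which give less weight to libraries that fit their group poorly, it passed at 1 h against sham (3.17% of all features called), 12 h against sham (32.4%), 72 h against 1 h (2.05%) and for any difference (31.8%). Adding the library factor to the model, it passed at 72 h against 1 h (1.79%) and for any difference (12.1%), but not at 1 h against sham (0.423%). When 12 h replicate 3 was also left out, a setting chosen after the data were examined, it passed at 1 h against sham (0.684%), 72 h against 1 h (1.83%) and for any difference (9.58%). Leaving out 12 h replicate 3 alone gave a call for any difference as well (10.2%).

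Nlrp3, Il1b and Casp1, 3 of the 4 genes, thus each had 1 h libraries that lay wholly below sham. The same held for 11.3% of all tested features. For Casp1 the separation was within counting error. Its 1 h replicate 1 stood at 88.7 (exact Poisson interval 68.8 to 112.7) and sham replicate 2 at 91.4 (75.6 to 109.5). Scaled to reads per M of the reads outside the 5 dominant features, the separation was also complete for these 3 genes, as it was for 19.6% of features. There Nlrp3 had 34.6 to 46.7 in sham and 2.99 to 13.9 at 1 h, Il1b 92.6 to 153 and 32.1 to 59.2, and Casp1 20.7 to 55.1 and 12.5 to 14.8. At 1 h this scaling shifted all features by a median of -0.40 on the log2 scale, and the differences were -2.38 for Nlrp3, -1.39 for Il1b and -1.14 for Casp1, with limma adjusted p-values of 0.781, 0.878 and 0.878. On the deposited scale the log2 differences at 1 h were -1.95 for Nlrp3, -0.95 for Il1b and -0.70 for Casp1. The median of all features was 0.02 there. Library factors were 1.00, 1.28 and 1.55 in sham and 0.755, 1.03 and 1.06 at 1 h (replicates 1 to 3). With the log2 factor as covariate the differences were -1.53, -0.70 and -0.46 in the same gene order (limma adjusted p = 0.144, 0.797 and 0.738). With 12 h replicate 3 also left out they were -1.84, -0.98 and -0.58. Whether the groups stay separated once the factor is accounted for was not tested. Il18, tested only because of 12 h, is left out. At 72 h against 1 h, 1 of the 4, Nlrp3, separated upwards, as did 7.95% of features. At 72 h against sham, Il1b separated downwards, as did 9.85%, and from 1 h to 6 h Nlrp3 separated upwards, as did 11%.

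**Figure D3:**
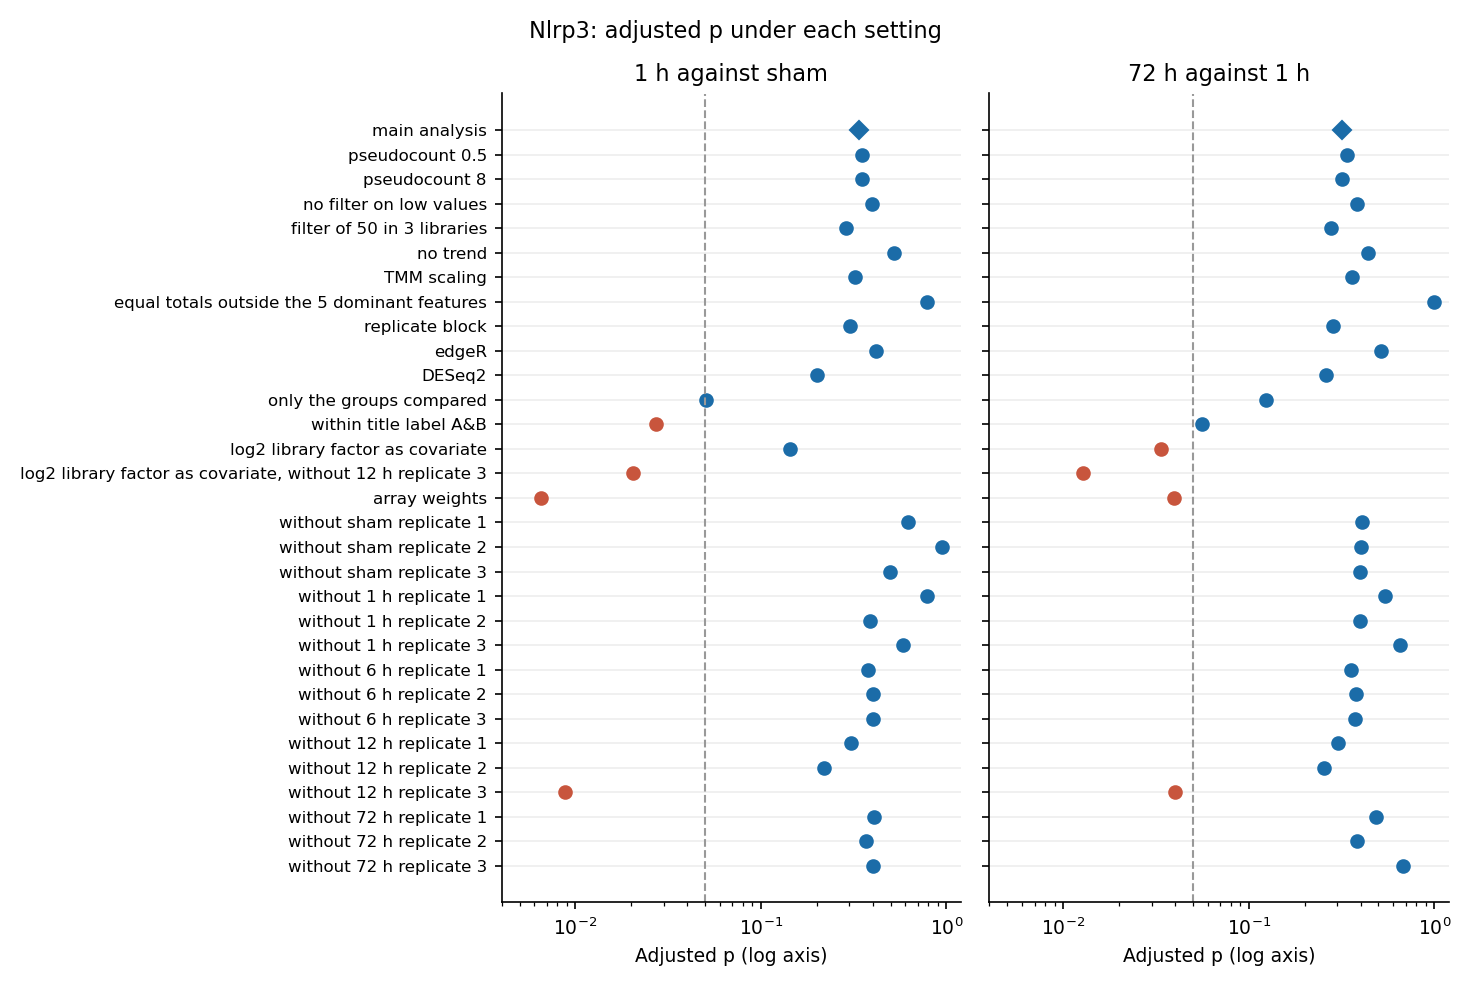
Adjusted p of Nlrp3 (log axis) for 1 h against sham and 72 h against 1 h under the main analysis (diamond) and the alternatives (circles, red where below the dashed line at 0.05). At 1 h against sham the fit within title label A&B (0.0271), array weights (0.00650), leaving out 12 h replicate 3 (0.00880) and doing so with the library factor as covariate (0.0204) lie below the line. At 72 h against 1 h the covariate without (0.0128) and with 12 h replicate 3 (0.0336), array weights (0.0393) and leaving out that library (0.0400) do.

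By mean log2 level, Nlrp3 and Casp1 were highest in sham and lowest at 1 h. Il1b was highest at 6 h and lowest at 1 h, and Il18 was highest at 12 h. The Il18 means of the other groups, 2.41 to 2.69, rested on 0 to 17 reads per library, so no lowest group is read from them. No step between groups next to each other in these orders passed the test, with limma adjusted p-values of 0.245 or more. The largest step between neighbours was that of Il18 from 12 h down to 6 h, 1.57 log2 units (limma adjusted p = 0.990), where the libraries did not overlap. Il18 was tested only because of its values at 12 h and had 4 to 7 reads at 6 h. Its step is therefore a description and is not read against those of other features. Next came the step of Nlrp3 from 12 h down to 1 h, 1.45 log2 units (limma adjusted p = 0.245), where the libraries overlapped. From 6 h to 12 h, under the same title label, Nlrp3 and Casp1 differed by -0.06 and 0.09 (limma adjusted p = 0.994 and 0.990).

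The sequences before the starts of the 3 genes whose 1 h libraries lay together below sham are shown for context. The genes were picked by these values, and their difference at 1 h passed for none of them in the main test. The Il18 window was also searched and is not printed. All sequences run from 250 bases before to 50 bases after the RefSeq start in the assembly GRCr8, not the build of the files. They were matched by symbol. Windows lie at chr10:44827848-44828147 (+ strand) for Nlrp3, chr3:137036532-137036831 (- strand) for Il1b and chr8:10872580-10872879 (+ strand) for Casp1. Capitals mark matches, on either strand, to the motifs described after the sequences.
Nlrp3: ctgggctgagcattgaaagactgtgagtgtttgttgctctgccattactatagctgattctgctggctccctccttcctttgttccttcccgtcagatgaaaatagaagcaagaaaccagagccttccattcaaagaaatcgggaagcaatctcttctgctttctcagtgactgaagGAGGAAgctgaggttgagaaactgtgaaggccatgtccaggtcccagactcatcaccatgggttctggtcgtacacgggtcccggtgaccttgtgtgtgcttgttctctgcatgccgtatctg
Il1b: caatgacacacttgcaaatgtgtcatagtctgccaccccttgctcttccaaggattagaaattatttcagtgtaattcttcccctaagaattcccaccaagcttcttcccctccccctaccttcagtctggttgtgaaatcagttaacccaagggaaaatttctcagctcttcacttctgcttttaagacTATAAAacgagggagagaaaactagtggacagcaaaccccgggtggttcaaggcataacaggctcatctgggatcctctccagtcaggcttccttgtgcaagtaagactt
Casp1: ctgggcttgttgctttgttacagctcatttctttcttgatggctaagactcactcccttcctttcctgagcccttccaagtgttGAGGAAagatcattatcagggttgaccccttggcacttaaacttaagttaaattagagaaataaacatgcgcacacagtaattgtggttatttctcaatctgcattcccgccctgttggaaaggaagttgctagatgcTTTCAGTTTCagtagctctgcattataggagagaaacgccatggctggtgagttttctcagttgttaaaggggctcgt
The motifs were chosen after these sequences had been seen. TATAAA, the core of the TATA box, occurred in the Il1b window, its first base at -60 relative to the start, and in 14.2% of 33465 promoter windows of this length. GAGGAA, a core bound by ETS factors such as PU.1, occurred in the windows of Nlrp3, at -73, and Casp1, at -166, and in 27.6% of all windows. The core of interferon-responsive elements, GAAA repeated after 2 bases of any kind, matched in the Casp1 window on the opposite strand as TTTCAGTTTC, at -28, and in 3.92% of all windows. An NF-kB pattern, GGGA followed after 2 bases of any kind by TTCC and found in 1.3% of windows, was not among the letters of any of these windows or that of Il18. Matches are letters in a window and were not tied to the expression values.

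In ratios of 2 genes in the same library the scaling by the library factor cancels, apart from the pseudocount. The genes can still follow the factor unequally. With group in the limma fit, slopes per unit of log2 factor were 0.99 for Nlrp3 and 0.57 for Casp1. They were 0.59 for Il1b and -0.37 for Il18, which did not pass. Whether the ratios move with the factor was not tested. The log2 ratio of Nlrp3 to Casp1, sensor to protease, was 0.47, 1.17 and -0.52 in sham, -2.02, -0.02 and -0.59 at 1 h, 0.31, 0.38 and 0.22 at 6 h, -0.48, -0.12 and 1.07 at 12 h and 0.81, 0.30 and 0.24 at 72 h (replicates 1 to 3). It was below 0 in all 3 libraries at 1 h and above 0 in all 3 at 6 h and at 72 h. The sign in 1 h replicate 2 rested on 71 reads of Nlrp3 against 72 of Casp1. At 1 h the ratio overlapped sham, with a difference of -1.25 (two-sided exact permutation p = 0.2, n = 3 against 3). It lay wholly below 72 h, with a difference of 1.32 from 1 h to 72 h (exact permutation p = 0.1). The smallest p that 3 against 3 libraries can give is 0.1, so no such comparison can pass 0.05.

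The log2 ratio of Il1b to Il18 was 4.18 ± 1.02 at 12 h, 6.34 ± 0.98 in sham and 6.45 ± 0.84 at 6 h (SD, n = 3 each). The 12 h libraries lay wholly below both groups, with differences of -2.16 from sham and -2.27 from 6 h (exact permutation p = 0.1 for each). Il18 was tested only because of its values at 12 h, and it had 2 to 17 reads in sham and 4 to 7 at 6 h. The ratio at 12 h is therefore a description, as Il18 itself is there, and no support for a difference. With a pseudocount of 8 in place of 1 the differences were -1.37 and -1.63 (exact permutation p = 0.2 for each) and the groups overlapped. The ratio of Il1b to Casp1 was 2.52 ± 0.85 at 6 h and 1.86 ± 0.35 in sham (SD, n = 3 each), a difference of 0.66 (exact permutation p = 0.3), and its groups overlapped. Over the 5 groups the permutation p was 0.197 for Nlrp3 to Casp1, 0.255 for Il1b to Il18 and 0.157 for Il1b to Casp1. After Benjamini-Hochberg adjustment over 21 tests the permutation p was at least 0.6 for each ratio and comparison. An exact permutation test over the 3 groups of title label A&B gave p = 0.118 for Nlrp3 to Casp1, 0.721 for Il1b to Il18 and 0.311 for Il1b to Casp1.

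**Figure D4:**
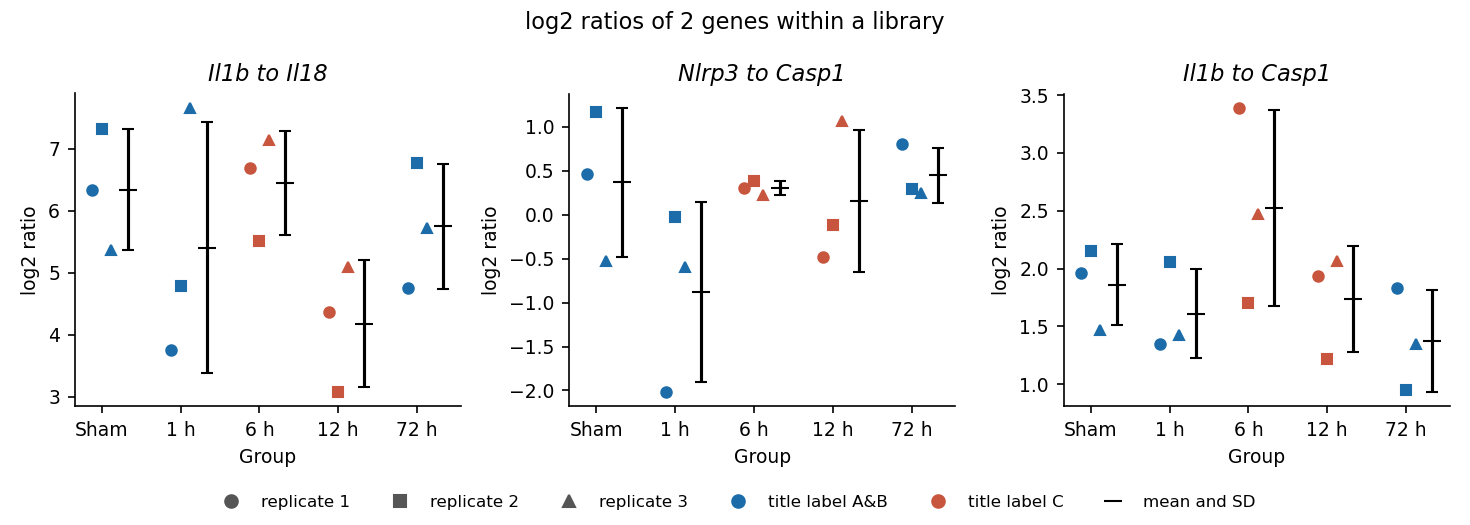
log2 ratios of Il1b to Il18, Nlrp3 to Casp1 and Il1b to Casp1 within each library by group. Symbols mark the replicate, colours the title label and bars the mean and SD of 3 libraries. The Il1b to Il18 ratio at 12 h has a mean of 4.18, below the sham mean of 6.34. The Nlrp3 to Casp1 ratio runs from -2.02 to -0.02 at 1 h and overlaps sham, at -0.52 to 1.17.

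Across the 15 libraries the levels of Nlrp3, Casp1 and Il1b were correlated, and no relation of Il18 to them passed the test. On the log2 scale Nlrp3 and Casp1 had Pearson's r = 0.667 (permutation p = 0.00602, adjusted 0.0267 over the 10 relations computed), while Spearman's rho was 0.675 (permutation p = 0.00694, adjusted 0.0378), and r was 0.640 without the 2 libraries farthest from the median of Nlrp3. Il1b and Casp1 had r = 0.657 (permutation p = 0.00818, adjusted 0.0267) and rho = 0.671 (permutation p = 0.00756, adjusted 0.0378). Their r was 0.671 without the 2 libraries farthest from the median of Il1b, which were 6 h replicate 1 and 12 h replicate 3. Il1b and Nlrp3 had r = 0.635 (permutation p = 0.0107, adjusted 0.0267) and rho = 0.618 (permutation p = 0.0158, adjusted 0.0527), with r = 0.587 without the 2 farthest. Within title labels A&B and C, r was 0.454 and 0.958 for Nlrp3 with Casp1, 0.626 and 0.786 for Il1b with Casp1, and 0.647 and 0.725 for Il1b with Nlrp3. The values for C include 12 h replicate 3. With only that library left out of the 15, r fell to 0.515 for Nlrp3 with Casp1, 0.547 for Il1b with Casp1 and 0.522 for Il1b with Nlrp3. The permutation tests were not repeated without it. The 3 relations of Il18 had r from -0.035 to 0.216, with permutation p of 0.442 or more. With equal totals outside the 5 dominant features r was higher throughout, at 0.405 for Il18 with Il1b, 0.419 with Casp1 and 0.276 with Nlrp3, against 0.818 to 0.847 among the other 3 genes.

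All libraries share the scaling, and the levels of Casp1 and Nlrp3 also moved with the library factor. Against the log2 factor r was 0.717 for Casp1 (permutation p = 0.00264, adjusted 0.0264), 0.617 for Nlrp3 (permutation p = 0.0154, adjusted 0.0307), 0.466 for Il1b (permutation p = 0.0803, adjusted 0.134) and -0.130 for Il18 (permutation p = 0.643, adjusted 0.714). The corresponding rho values were 0.471 (adjusted permutation p = 0.199), 0.407 (0.271), 0.314 (0.422) and -0.289 (0.422). With 12 h replicates 2 and 3 left out, whose factors lie farthest from the median, r became 0.457, 0.355, 0.063 and -0.482. It was thus lower for Casp1, Nlrp3 and Il1b, most of all for Il1b. Leaving out these libraries also narrows the range of the factor, so it cannot tell what the relation rests on. For Casp1 r was 0.417 among libraries of title label A&B and 0.935 among those of C, and for Nlrp3 0.354 and 0.910. For Il1b these values were 0.293 and 0.578, and for Il18 -0.395 and 0.152. With group in the limma fit, the slope per unit of log2 factor was 0.99 for Nlrp3 (SE 0.24, adjusted p = 0.00508) and 0.57 for Casp1 (SE 0.17, adjusted p = 0.0154), and 0.59 for Il1b and -0.37 for Il18 did not pass (limma adjusted p = 0.145 and 0.635). Of all features 33.7% followed the factor by this test. After group means and this slope were removed, r between Nlrp3 and Casp1 was 0.021, between Il1b and Casp1 0.598 and between Il1b and Nlrp3 0.505. For Il18 it was then 0.516 with Casp1, 0.478 with Il1b and 0.060 with Nlrp3, so that Il18 was no longer the gene least related to Casp1. With the factor as a covariate Nlrp3 differed by -1.53 at 1 h against sham (limma adjusted p = 0.144) and by 1.80 at 72 h against 1 h (limma adjusted p = 0.0336, with 1.79% of all features called).

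**Figure D5:**
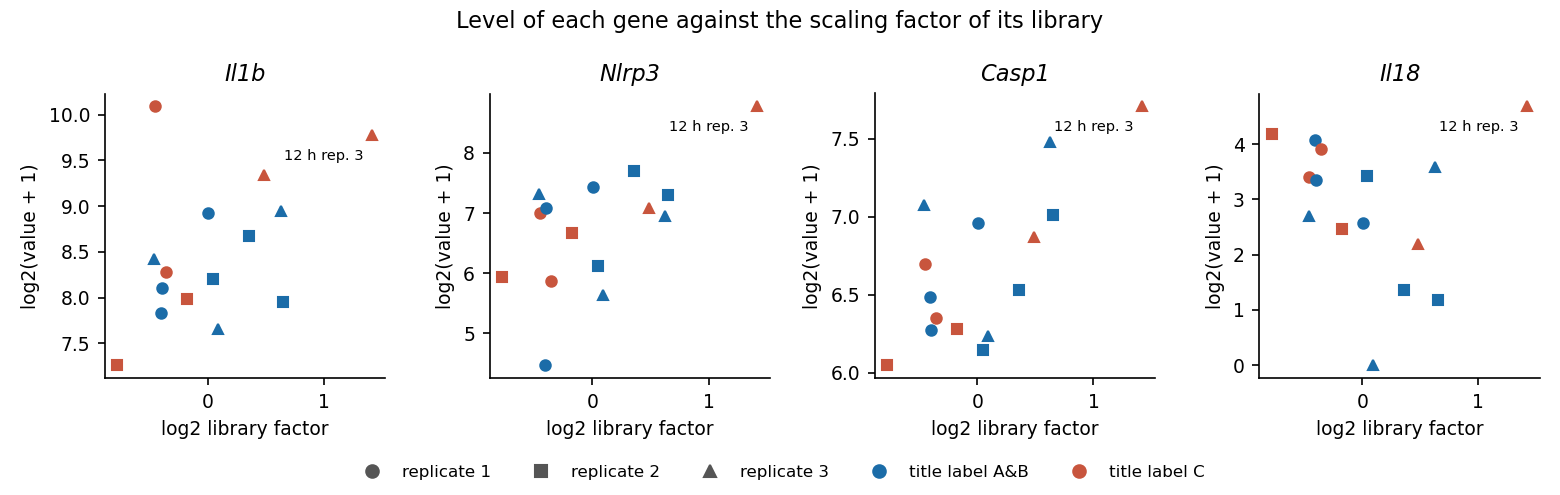
Level of each gene, log2(value + 1), against the log2 scaling factor of its library for all 15 libraries, with symbols for replicates and colours for title labels. 12 h replicate 3, at the far right, has the highest Nlrp3, Casp1 and Il18, and r over all libraries is 0.617 for Nlrp3, 0.717 for Casp1, 0.466 for Il1b and -0.130 for Il18.

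Among 8917 other annotated features tested, the one most like Nlrp3 over the 15 libraries was ENSRNOG00000013170, with Pearson's r = 0.908 on the log2 scale, the single feature above 0.9, and the third had 0.885. For Casp1 the most similar feature was ENSRNOG00000005810 (r = 0.885), for Il1b ENSRNOG00000042838 (r = 0.863) and for Il18 ENSRNOG00000045729 (r = 0.789). The median r of all these features was 0.072 with Nlrp3, 0.122 with Casp1, 0.051 with Il1b and -0.066 with Il18. Ranked by likeness to Il1b, Casp1 came at 100, Nlrp3 at 135 and Il18 at 2834. Ranked by likeness to Nlrp3, Casp1 came at 396, Il1b at 525 and Il18 at 5318. Ranked by likeness to Casp1, Nlrp3 came at 194, Il1b at 215 and Il18 at 4152. These are descriptions over libraries that share their scaling, and the identifiers carry no names in the sources used here.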

How the data were processed

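Whole-blood RNA was sequenced in 15 libraries of 5 groups. PAXgene tubes held the blood and libraries came from 1 ug of total RNA, read as pairs of 150 bp, per the labels' protocols. The submitters' processing notes list Bowtie 0.12.2 and Rnor_6.0. Neither the counting tool nor its handling of strand and shared reads is given in the sources used here, so reads shared with near-identical or overlapping genes cannot be told apart. The deposited values are a signal, reads per feature divided by 1 factor per library of the authors. The evidence is in the values, since in every library 100% of values were within 0.01 of a whole multiple of 1 step. In sham replicate 1 that step is near 1 and less well tested. Factors recomputed by the median-of-ratios method differed by at most 1.56e-08%.

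The main test was limma 3.58.1 (trend, robust; R 4.3.3) on log2(value + 1) with all 15 libraries, for 11117 features with at least 10 in at least 3 libraries, two-sided, with Benjamini-Hochberg adjustment over all of them at 0.05. edgeR 4.0.16 (quasi-likelihood) and DESeq2 1.42.0 were run on the recovered reads. A limma fit of the same form was run on counts simulated with known changes at 1 h against sham, and its outcome is not given here. Ratios used exact permutation tests, or 100000 resamples over 5 groups. Intervals on reads cover counting error only. The main fit did not pair libraries, and replicate number entered only as a block in an alternative fit. Deviations from the group means correlated by 0.132, 0.147 and 0.448 in the 3 same-numbered pairs of 12 h with 6 h. Libraries of unlike number reached 0.160 (6 h replicate 1 with 12 h replicate 2) and 0.471 (12 h replicate 3 with 72 h replicate 2). These correlations therefore do not show that equal numbers mark pairs. The 4 members and all lists and tests were chosen with earlier results of these data known. Named genes are the 4 members and, per member, the annotated feature most like it. The 15 pathway and marker lists could not be run, because 0 identifiers matched the reference table. Promoter sequences are from RefSeq (GRCr8).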

Additional observations from a re-analysis of the deposited data

How the results depend on the processing

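None of the alternatives called Il1b, Casp1 or Il18 in any comparison, while Nlrp3 was called in 14 cases. The count of the 4 genes called went from 0 to 1 (Nlrp3) with array weights in 4 comparisons. These were 1 h against sham (3.17% of all features called), 12 h against sham (32.4%), 72 h against 1 h (2.05%) and any difference (31.8%). With the log2 library factor as covariate the count was 1 for the last 2 of these (1.79% and 12.1%). When 12 h replicate 3 was also left out, a setting chosen after seeing the data, it was 1 for those 2 (1.83% and 9.58%) and for 1 h (0.684%). Within title label A&B it was 1 for 1 h (0.953%). Leaving out 1 library gave counts of 0 to 1 for the 4 comparisons called with array weights. The 1 came each time without 12 h replicate 3 (0.909%, 13.9%, 0.234% and 10.2% of all features called, in the same order). Other filters, pseudocounts and scalings, limma without trend, fits to the groups compared alone, the replicate block, edgeR and DESeq2 left all counts at 0. With the replicate block the Nlrp3 log2 difference at 1 h stayed at -1.95 (limma adjusted p = 0.303), and the block changed no call, 12 h against 6 h included. Directions turned for small differences, the cause of which was not tested: Il1b at 6 h against sham to -0.42 with equal totals and -0.0047 with array weights; Nlrp3 at 12 h against sham to 0.19 in edgeR and 0.16 in DESeq2; Nlrp3 and Casp1 at 72 h against sham to 0.27 and 0.025 with the factor as covariate; Nlrp3 at 12 h against 6 h to 0.14 with equal totals, 0.71 in edgeR and 0.62 in DESeq2; Casp1 at 12 h against 6 h to -0.17 with array weights and -0.27 with the covariate and without 12 h replicate 3. Leaving out 1 library gave ranges of -0.19 to 0.87 for Il1b at 6 h, -1.07 to 0.18 for Il1b and -0.79 to 0.039 for Casp1 at 12 h, -0.33 to 0.043 for Nlrp3 and -0.43 to 0.052 for Casp1 at 72 h against sham, and -1.02 to 0.43 for Nlrp3 and -0.42 to 0.41 for Casp1 at 12 h against 6 h. It moved the permutation p over 5 groups between 0.0495 (without 1 h replicate 3, which has 0 reads of Il18) and 0.548 for the ratio of Il1b to Il18 and between 0.0227 (without 6 h replicate 2) and 0.465 for Il1b to Casp1. Over all features the calls at 1 h numbered 15 in limma, 0 in edgeR, 72 in DESeq2 and 101 without 12 h replicate 3, and at 12 h 8, 6, 313 and 1546. Il18, at 0 to 17 reads outside 12 h replicate 3, is limited by depth and was not tested with a filter of 50.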
